A study of Mus musculus with 2 samples.

Results

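Titin, the nebulin family and the giant proteins with immunoglobulin repeats were described in the heart of the young mouse from 7 genes, Ttn, Nebl, Nrap, Obsl1, Speg, Alpk3 and Neb, out of 55536 genes in the gene tables. The genes were chosen by symbol, for the family of the protein, and not by their values, although earlier results of these data were known. Each of 2 male B6CASTF1/J animals, a hybrid between inbred strains, gave 1 heart at 25 days of age, and each library was made from 300 ng of total RNA with synthetic spike-in RNAs. Replicate 2 is animal 4 of the laboratory's bank and replicate 1 is animal 3, although 1 donor identifier covers both. There is 1 group, with no treatment, second genotype or second age, so levels are described and no groups are compared. Where both hearts are set against each other, the ratio is replicate 2 over replicate 1. Whole hearts hold many cell types, and in such bulk samples fewer cells of a type and less RNA per cell cannot be told apart.

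The sarcomere is the contractile unit of striated muscle, built of thick myosin and thin actin filaments between Z-discs. Titin spans from the Z-disc to the M-band in the middle of the sarcomere as a single molecule, and its I-band part is a spring whose length and stiffness are set by splicing. Nebulin lies along the thin filament of skeletal muscle, where it fixes the length of the filament. Nebulette is its shorter relative at the Z-disc of heart muscle, and NRAP, another relative, acts in the assembly of myofibrils and at the intercalated disc. Obscurin-like 1 and SPEG carry immunoglobulin and fibronectin domains like those of titin, the first at the M-band and in the 3M growth complex, the second near the junction of the sarcoplasmic reticulum with the T-tubule. ALPK3 is an alpha kinase family member of the M-band whose loss causes cardiomyopathy.

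Levels are given in TPM, transcripts per 1000000 of them in a library after counts are divided by transcript length, so that genes of different length can be set side by side. The authors deposited a first quantification, made from an alignment to the transcriptome, and a second, made directly from reads, and values are from the first unless the second is named. The gene tables held 40655101 estimated counts in replicate 2 and 38253821 in replicate 1, so that 3 counts, the limit below which a gene at 0 could lie, were 0.0738 counts per 1000000 (CPM) in replicate 2 and 0.0784 in replicate 1. These limits cover counting error only. The counts of both libraries differed by more than sampling noise, with a median chi-square per gene of 1.68 against 0.455 for sampling alone. This shows that they are not a repeat deposit of the same library, and it does not tell whether the RNA came from 1 animal or 2. The labelled tissue was checked with 7 heart muscle markers, which were led by Myh6 and Myl2 at 8557 ± 353 and 6110 ± 514 TPM (SD, n = 2) and had Ryr2 as their lowest member. Of 9 skeletal muscle markers, 2 reached 1 TPM in both hearts, and their summed level was 3.33 TPM in replicate 2 and 3.08 TPM in replicate 1. The defining genes Myog and Myod1 had 0 counts in both hearts. Myh1 and Myh2 had 1 count each in replicate 2 and 0 in replicate 1, listed as 0 TPM at the 2 decimals of the tables, and the second quantification put them at 0.0546 ± 0.0168 and 0.0516 ± 0.0156 TPM. Markers of other cells reached 1 TPM in both hearts for 5 of 5 smooth muscle, 5 of 5 fibroblast, 5 of 5 endothelial, 5 of 5 macrophage, 4 of 4 adipocyte and 5 of 5 erythroid genes. The summed adipocyte level was 33.2 TPM in replicate 2 and 231 TPM in replicate 1, and the summed erythroid level was 23411 TPM in replicate 2 and 46562 TPM in replicate 1.

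Sequences upstream of some annotated starts are shown for the members other than Obsl1 and Neb, because the members differed in how much of their RNA came from 1 start. Each is the run of 250 bases before a RefSeq start in GRCm38.p6, written from 5′ to 3′ on the strand of the gene, and capitals mark a MEF2 box, a CArG box or both. The MEF2 box is an AT-rich element of muscle genes, and the CArG box is the element bound by serum response factor. RefSeq windows were found for 6 of the 7 members, 12 windows in all, and not all of them are printed. No window lay within 100 bases of the starts of Nebl-202 and Nebl-210, the group of starts that held 44.4% ± 1.33 of the TPM of Nebl.
Ttn, chr2:76982548-76982797, minus strand: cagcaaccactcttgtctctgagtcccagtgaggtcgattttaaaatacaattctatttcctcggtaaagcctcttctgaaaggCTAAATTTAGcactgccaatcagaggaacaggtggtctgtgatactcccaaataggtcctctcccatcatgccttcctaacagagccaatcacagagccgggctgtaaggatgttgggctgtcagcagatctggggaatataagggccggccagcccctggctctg
Speg, chr1:75375047-75375296, plus strand, before the start of Speg-201: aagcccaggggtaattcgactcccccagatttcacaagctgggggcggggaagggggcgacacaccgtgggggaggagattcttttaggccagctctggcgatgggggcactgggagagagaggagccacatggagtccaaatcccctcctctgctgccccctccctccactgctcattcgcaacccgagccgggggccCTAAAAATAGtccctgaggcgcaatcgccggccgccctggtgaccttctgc
Speg, chr1:75381864-75382113, plus strand, before the start of Speg-214: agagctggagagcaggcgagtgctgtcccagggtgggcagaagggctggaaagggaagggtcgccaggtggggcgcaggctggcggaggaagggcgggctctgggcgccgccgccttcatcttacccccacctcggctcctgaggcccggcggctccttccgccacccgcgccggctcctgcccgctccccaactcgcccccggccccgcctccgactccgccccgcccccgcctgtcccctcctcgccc
Alpk3, chr7:81057350-81057599, plus strand, before the start of Alpk3-201: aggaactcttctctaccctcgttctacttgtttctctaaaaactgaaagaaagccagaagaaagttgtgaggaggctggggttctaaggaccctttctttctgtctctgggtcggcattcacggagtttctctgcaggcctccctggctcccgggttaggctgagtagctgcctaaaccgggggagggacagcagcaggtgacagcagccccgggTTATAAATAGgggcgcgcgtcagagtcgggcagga
Nrap, chr19:56390039-56390288, minus strand: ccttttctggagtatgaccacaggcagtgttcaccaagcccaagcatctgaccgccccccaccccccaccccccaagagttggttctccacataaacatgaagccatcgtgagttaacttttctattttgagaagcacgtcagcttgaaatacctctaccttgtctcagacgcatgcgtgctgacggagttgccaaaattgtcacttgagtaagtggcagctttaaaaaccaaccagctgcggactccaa
Nebl, chr2:17462857-17463106, minus strand, before the start of Nebl-207 and Nebl-206: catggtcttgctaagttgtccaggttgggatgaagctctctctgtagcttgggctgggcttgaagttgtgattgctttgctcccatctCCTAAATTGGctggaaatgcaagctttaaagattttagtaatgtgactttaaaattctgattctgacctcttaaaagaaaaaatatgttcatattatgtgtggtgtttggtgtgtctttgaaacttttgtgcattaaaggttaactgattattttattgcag
Among the 12 windows of the members, a MEF2 box was present in 1 each of Ttn, Speg and Alpk3, with 156, 41 and 25 bases between it and the start. It was present in 2.92% of all 32851 RefSeq windows. The window of Nrap and that of Obsl1, which is not printed, held neither a MEF2 box nor a CArG box. In Alpk3 the same letters hold TATAAA, which 12.4% of all windows hold on either strand. The CArG box of the Nebl window, 152 bases from the RefSeq start, was a pattern found in 1.47% of windows. This RefSeq start lies 67 bases upstream of the start of Nebl-207, the nearest model. The motif CATTCC, known as M-CAT, stood in 12.6% of windows and in the windows before Speg-211, Speg-204 and an internal Nebl start, 36, 181 and 224 bases from the start. The E-box, CANNTG, was in 66.2% of windows and in at least 1 window of each of the 6 members. The latter is a count by gene, and Speg and Nebl had more than 1 window each. Both strands were searched for every motif, and a match describes letters and not a site in use. The windows of Speg differed in composition. The window before Speg-201 had 63.6% G and C and 12 CpG, and the window before Speg-214 had 76.0% and 24, against medians of 52.4% and 6 over all windows. Nebl held a wider range than Speg, the only other member with more than 1 window. It had 72.4% G and C and 25 CpG before its most upstream RefSeq start. Before the start near Nebl-206 it had 36.8% and 0 CpG, in a window that ends in the letters ttgcag, as introns commonly do.

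All 7 members were detected in both hearts, over a range from about the level of a respiratory chain subunit for titin to a few TPM for nebulin. Each of the 7 reached 1 TPM in both hearts, as did 49.5% of the 22015 protein-coding genes outside the mitochondrial genome. The median over the members was 51.2 TPM, beside 8.12 TPM over the coding genes that reached 1 TPM. The order from high to low was Ttn, Nebl, Nrap, Obsl1, Speg, Alpk3 and Neb in each heart. Neighbours in this order were called apart where the log2 ratio had the same sign in both hearts and its mean exceeded its SD, which 6 of 6 neighbouring pairs did. The order was taken from the same values, and the rule is lenient with 2 hearts. It passed Obsl1 over Speg at 0.04 ± 0.003, so it describes these 2 hearts and is not a test. No p-value is given, because with 2 hearts an exact test of a sign cannot go below 0.5.

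**Figure D1:**
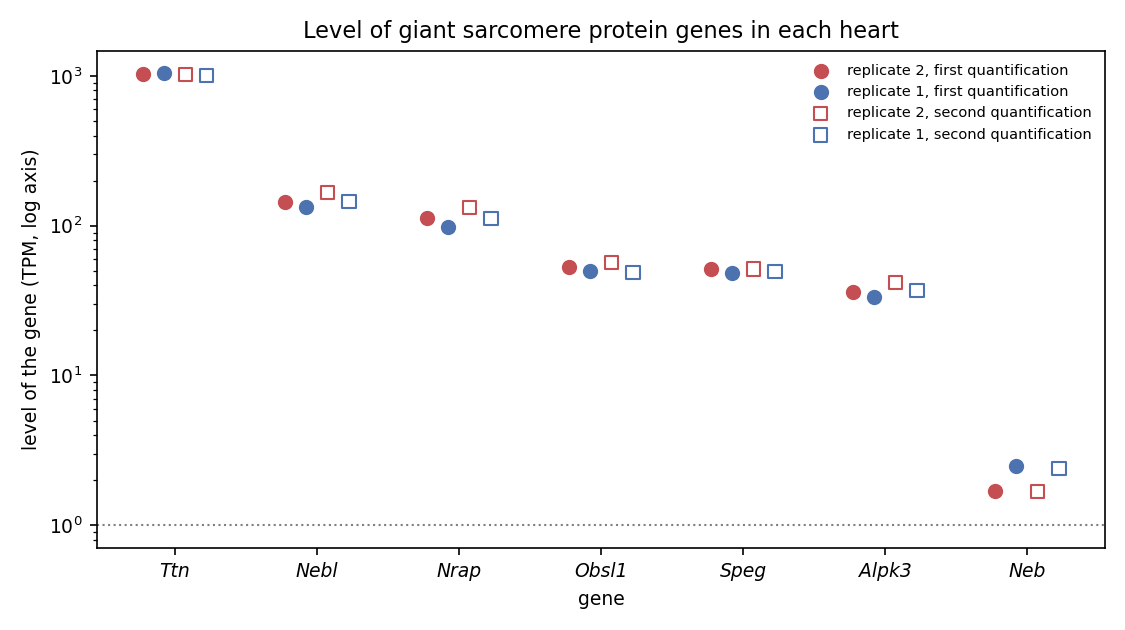
Level of each gene in TPM (log axis) in replicate 2 (red) and replicate 1 (blue), in the first (filled circles) and the second quantification (open squares), with 1 TPM as the dotted line. Titin lies between 1009 and 1041 TPM in every library and quantification, and nebulin lies between 1.68 and 2.49 TPM.

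Titin (Ttn, ENSMUSG00000051747.14, mm10 chromosome 2, 76703980 to 76982547, minus strand) was at 1026 TPM in replicate 2 and 1041 TPM in replicate 1, a mean of 1033 ± 10.9 TPM (SD, n = 2). The second quantification gave 1018 ± 11.7 TPM. The gene above it in level among coding genes was Uqcrq, a subunit of respiratory complex III, at 1041 ± 42.3 TPM, and the gene below it was Tpt1, the tumor protein with a role in translation, at 989 ± 60.9 TPM. By TPM titin ranked 30 among coding genes, but by reads it ranked 1. It drew 1199691 counts in replicate 2 and 1167495 in replicate 1, which were 4.97% (replicate 2) and 5.21% (replicate 1) of the counts of coding genes outside the mitochondrial genome. Of the counts of all genes it held 2.95% in replicate 2 and 3.05% in replicate 1, and 3 noncoding or mitochondrial genes ranked above it. The other 6 members also ranked higher by reads than by TPM. The 7 genes together held 3.11% of all gene counts in replicate 2 and 3.19% in replicate 1.

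The nebulin family was led by its short members. Nebl (ENSMUSG00000053702.16, chromosome 2, 17343909 to 17731464, minus strand), which encodes nebulette, was at 145 TPM in replicate 2 and 134 TPM in replicate 1, a mean of 139 ± 7.82 TPM. Nrap (ENSMUSG00000049134.15, chromosome 19, 56320035 to 56390037, minus strand) was at 112 TPM in replicate 2 and 98.4 TPM in replicate 1, a mean of 105 ± 9.87 TPM. Neb itself (ENSMUSG00000026950.17, chromosome 2, 52136647 to 52378474, minus strand) was at 1.70 TPM in replicate 2 and 2.49 TPM in replicate 1, a mean of 2.10 ± 0.559 TPM, from 531 counts in replicate 2 and 567 in replicate 1. Nebulin was thus the lowest of the 7 and ranked 9680 by TPM among coding genes, with a spread between the hearts that was larger relative to its mean than that of any other member. On the log2 scale of TPM plus 0.1, nebulette stood above nebulin by 6.01 ± 0.45 and NRAP stood above nebulin by 5.61 ± 0.51, in both hearts. Over all models of each gene, Nebl stood above Nrap by a smaller ratio, 0.41 ± 0.05. Over protein-coding models alone the order turned, with Nebl at 85.6 ± 4.77 TPM and Nrap at 105 ± 9.79 TPM. Lasp1, a small LIM and SH3 domain relative found outside muscle as well, was at 13.6 ± 1.67 TPM, and Nebl stood above it by 3.35 ± 0.10 on the same scale. Nebulin is known from skeletal muscle, whose markers were near 0 here, and their highest members were Tnni2 and Mylpf at 1.39 ± 0.255 and 1.25 ± 0.290 TPM. Nebulin was also above its limit of counting in both hearts, and which cells its reads came from was not tested.

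The relatives with titin-like domains came next. Obsl1 (ENSMUSG00000026211.17, chromosome 1, 75479310 to 75506452, minus strand) was at 52.7 TPM in replicate 2 and 49.6 TPM in replicate 1, a mean of 51.2 ± 2.18 TPM. Speg (ENSMUSG00000026207.16, chromosome 1, 75375297 to 75432320, plus strand), its neighbour on the same chromosome, was at 51.4 TPM in replicate 2 and 48.2 TPM in replicate 1, a mean of 49.8 ± 2.23 TPM. The levels of the 2 genes were nearly alike, with a log2 ratio of Speg over Obsl1 of -0.04 ± 0.003 in the first quantification. In the second quantification the ratio was -0.14 in replicate 2 and 0.03 in replicate 1, so that their order was not the same in both hearts. Titin stood above Speg by 4.37 ± 0.08 on the log2 scale.

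Alpk3 (ENSMUSG00000038763.12, chromosome 7, 81057600 to 81105612, plus strand) was at 36.2 TPM in replicate 2 and 33.3 TPM in replicate 1, a mean of 34.8 ± 2.04 TPM. Its relative Alpk2, also a heart-expressed alpha kinase, was at 39.0 TPM in replicate 2 and 37.1 TPM in replicate 1, a mean of 38.0 ± 1.32 TPM, and Alpk1, an alpha kinase of innate immunity, was at 1.32 ± 0.0919 TPM. The log2 ratio of Alpk3 over Alpk2 was -0.13 ± 0.03, against 0.03 ± 0.02 by the second quantification, so which of them was higher depended on the quantification. The coding genes next to the remaining members in level were Pdk2 and Serf2 for Nebl, Rpl35 and Trak1 for Nrap, Adipor1 and Cope for Obsl1, Nisch and Pkp2 for Speg, Mat2b and Abhd18 for Alpk3, and Il1r1 and Gbp4 for Neb. Likeness in pattern cannot be measured with 2 samples of 1 group, so these genes share a level only.

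The partners of these proteins were described from lists of genes by place in the sarcomere. At the Z-disc, where titin is anchored, 8 of 8 partners reached 1 TPM in both hearts, with a median of 361 TPM. Myoz2, which tethers calcineurin at the Z-disc, was highest at 725 ± 32.7 TPM, followed by Csrp3, the muscle LIM protein, at 710 ± 64.6 TPM, and Myot, myotilin, was lowest at 9.25 ± 1.54 TPM. In the I-band, 5 of 7 partners reached 1 TPM, with a median of 102 TPM. Cryab, a small heat shock protein that binds the titin spring, was highest at 755 ± 54.1 TPM, and Fhl2, a LIM protein of the same region, followed at 691 ± 104 TPM. Ankrd2, an ankyrin repeat protein known from skeletal muscle, was lowest, listed at 0 TPM in replicate 2 and at 0.03 TPM in replicate 1. Along the A-band and M-band, 8 of 9 partners reached 1 TPM, with a median of 112 TPM. Mybpc3, cardiac myosin binding protein C, was highest at 536 ± 58.8 TPM, Myom1, which cross-links titin at the M-band, followed at 415 ± 29.97 TPM, and Myom3, a myomesin known from skeletal muscle, was at 0.23 TPM in both hearts.

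Genes that act on the thin filament and with nebulin had a lower median, 23.9 TPM, and 10 of 11 reached 1 TPM. Lmod2, the leiomodin of heart muscle that lengthens thin filaments, was highest at 270 ± 26.6 TPM, and Capzb, the capping protein at the Z-disc end, followed at 142 ± 9.21 TPM. Lmod1, the leiomodin of smooth muscle, was lowest at 1.04 ± 0.0990 TPM. Of the SPEG partners all 4 reached 1 TPM, from the calcium pump gene Atp2a2 at 3801 ± 75.2 TPM and the release channel gene Ryr2 at 344 ± 13.0 TPM down to Mtm1, the phosphoinositide phosphatase myotubularin, at 6.91 ± 0.297 TPM. The 3M complex, in which OBSL1 joins a ubiquitin ligase, was lower than Obsl1 itself. Its other genes were Fbxw8 at 15.0 ± 0.750 TPM, Cul7 at 7.82 ± 0.297 TPM and Ccdc8 at 1.78 ± 0.127 TPM. The splicing factors that act on titin were both present, with Rbm20, which represses inclusion of titin exons in heart, at 72.8 TPM in replicate 2 and 84.5 TPM in replicate 1, and Rbm24 at 67.3 TPM in replicate 2 and 65.4 TPM in replicate 1.

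The share of a gene's RNA in its long transcripts differed between members and between units. A transcript was called long where it had at least 50% of the length of the gene's longest annotated transcript. Nrap held 99.8% ± 0.0585 of its TPM in long transcripts and Alpk3 held 99.2% ± 0.207. The share was 63.9% ± 0.594 for Speg and 49.6% ± 1.03 for Obsl1. It was 36.8% ± 0.938 for Ttn, 35.8% ± 0.317 for Nebl and 26.1% ± 6.29 for Neb. By reads the same long transcripts held far more, 89.7% ± 0.372 for Ttn, 83.7% ± 0.0747 for Nebl and 72.9% ± 3.65 for Neb, since a long transcript draws more reads for each copy. With limits of 25% and 75%, the share of Obsl1 TPM was 63.9% and 43.4%. Nebl held 27.6% of TPM at 75%, where Nebl-201, of 270 codons, no longer counted as long. Neb held 37.1% at 25%. The shares of Ttn, Speg, Alpk3 and Nrap changed little.

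**Figure D2:**
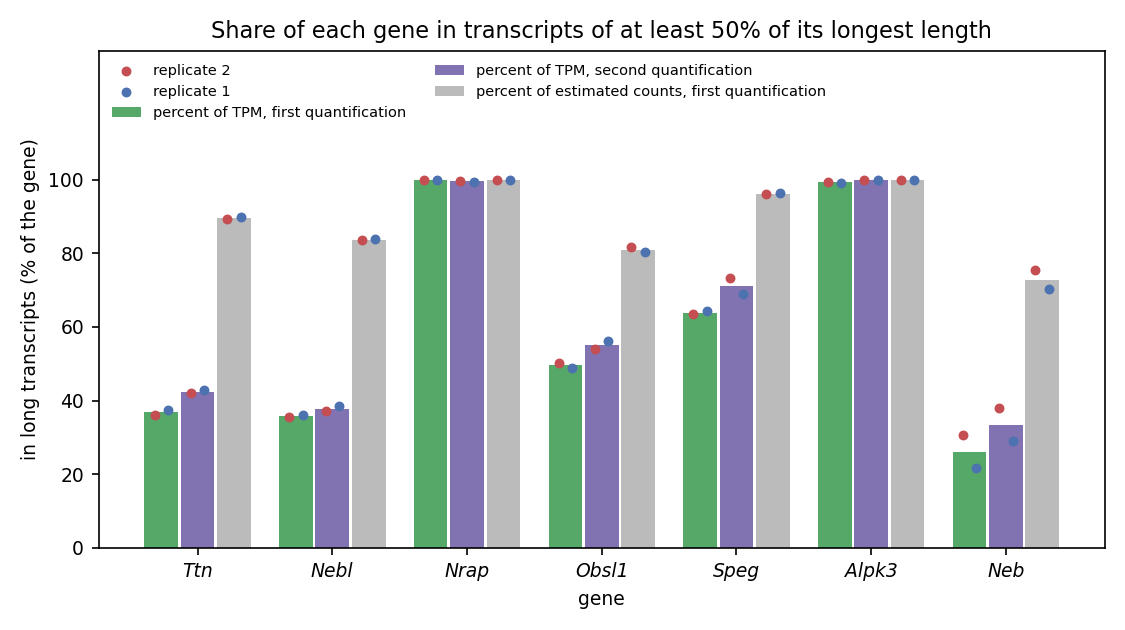
Percent of each gene in transcripts of at least 50% of its longest annotated length, by TPM in the first (green) and second quantification (purple) and by estimated counts (grey), with bars for the mean of 2 hearts and points for replicate 2 (red) and replicate 1 (blue). Nrap and Alpk3 stand near the top in every unit, while Ttn, Nebl and Neb lie below 50% by TPM and above 70% by counts.

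Restricting the sum to long transcripts changed the order of the members. Ttn stayed highest at 370 TPM in replicate 2 and 390 TPM in replicate 1, a mean of 380 ± 13.7 TPM. Nrap came next at 105 ± 9.79 TPM, above Nebl at 49.97 ± 2.36 TPM, so that the log2 ratio of Nebl over Nrap was -1.07 ± 0.07 in place of 0.41 ± 0.05 over all transcripts. Alpk3 followed at 34.5 ± 2.10 TPM, then Speg at 31.8 ± 1.13 TPM and Obsl1 at 25.4 ± 1.61 TPM, and the log2 ratio of Speg over Obsl1 was 0.33 ± 0.04. Neb had 0.520 TPM in long transcripts in replicate 2 and 0.540 TPM in replicate 1, so its hearts differed by less here than over all its transcripts. All 6 neighbouring pairs of this order were apart by the same rule, and the second quantification gave the same order. The place of Speg and Obsl1 depended on the limit of length. At 25% of the longest, Obsl1 stood above Speg in both hearts and both quantifications, at 32.7 ± 1.19 against 31.9 ± 1.32 TPM in the first. At 75%, Speg stood above Obsl1, at 31.8 ± 1.13 against 22.2 ± 0.990 TPM.

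Titin RNA was spread over 25 annotated transcripts, of which 4 were giants of over 50% of the longest length. The giant Ttn-201 (81843 bases, 192 exons, 26886 codons) led in both hearts, at 357 TPM in replicate 2 and 376 TPM in replicate 1. It held 85.8% ± 0.384 of titin counts but only 35.5% ± 0.916 of titin TPM. The remaining giants were low. Ttn-204 (100404 bases) was at 10.4 ± 0.226 TPM, Ttn-205 (101674 bases) at 3.00 ± 0.544 TPM and Ttn-203 (106824 bases, 35213 codons) at 0.0300 TPM in replicate 2 and 0.110 TPM in replicate 1. The second quantification moved these 3 and turned the order of the last pair, with Ttn-204 at 22.4 ± 0.659 TPM, Ttn-203 at 6.44 TPM in replicate 2 and 6.09 TPM in replicate 1, and Ttn-205 at 0.0141 TPM. Of the giants' summed TPM, Ttn-201 held 96.4% in replicate 2 and 96.5% in replicate 1, and in the second quantification 93.2% in replicate 2 and 93.5% in replicate 1.

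Among the short models, Ttn-215 (2159 bases, annotated as incomplete at its end) was at 328 TPM in replicate 2 and 315 TPM in replicate 1. It held 31.1% ± 1.25 of titin TPM and 1.90% ± 0.117 of titin counts, and the second quantification lowered its share of TPM to 21.1% ± 1.55. Ttn-218 (10229 bases, incomplete at both ends) held 13.7% ± 0.292 of titin TPM, at 139 TPM in replicate 2 and 145 TPM in replicate 1. Transcripts annotated as incomplete at an end together held 54.2% ± 0.532 of titin TPM but 6.56% of titin counts. How far such fragments stand for RNAs of their own was not tested.

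The leading model was set against the longest, Ttn-203, exon by exon. Ttn-203 holds 347 exons, and Ttn-201 holds 192 of them and none of its own. The 155 exons that Ttn-201 lacks are exon 11, of 138 bases, and an unbroken block from exon 48 to exon 201, which counts 154 exons and 24843 bases. The block lies in the I-band part, where splicing is known to set the length of the titin spring, and the short cardiac form lacks much of it. For each exon the TPM of all transcript models that hold it was summed. Over the 192 exons of Ttn-201 the sum had a median of 380 TPM and ranged from 367 to 787 TPM. Over the block of 154 exons the median was 13.6 TPM, with a range from 0.0700 to 253 TPM, and in the second quantification it was 34.6 TPM. The higher exons within the block belonged in the main to Ttn-218 and other incomplete models. Exon 11 stood at 342 TPM, most of it from Ttn-215. The first exon summed to 776 TPM in replicate 2 and 778 TPM in replicate 1, as 7 models share it. These are sums over annotated models, and reads over single exons or splice junctions were not analysed here.

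**Figure D3:**
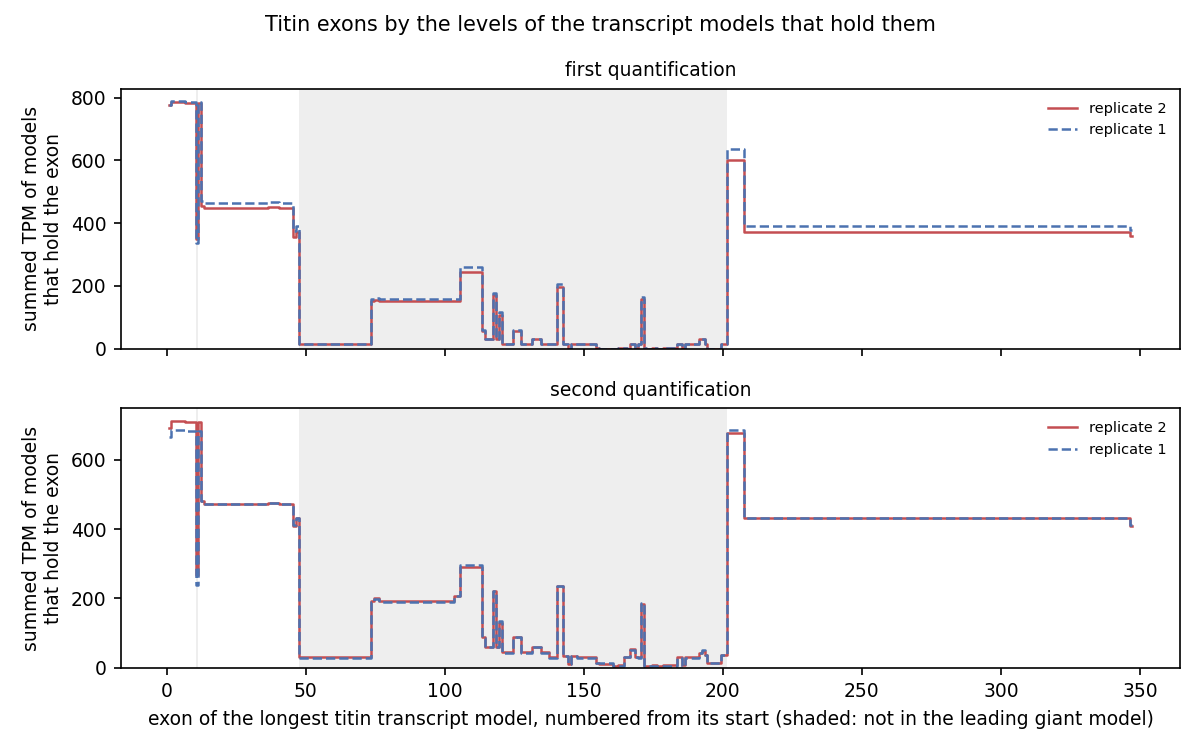
Summed TPM of the transcript models that hold each exon of Ttn-203, by exon number from the start of the gene, in replicate 2 (red) and replicate 1 (blue dashed), for the first (top) and second quantification (bottom), with shading where Ttn-201 lacks the exon. The block from exon 48 to exon 201 has a median of 13.6 TPM against 380 TPM over the exons of Ttn-201 in the first quantification, and the lines of both hearts run close together.

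Nebl was divided among 13 transcripts and several starts. Nebl-202 (8079 bases, 28 exons, 1014 codons), the full-length coding model, was at 39.5 TPM in replicate 2 and 37.6 TPM in replicate 1, which was 27.6% ± 0.581 of the gene's TPM and 69.1% ± 0.705 of its counts. The leading model by TPM was Nebl-208, a noncoding model of 436 bases, at 45.5 TPM in replicate 2 and 41.3 TPM in replicate 1, with 31.1% ± 0.384 of TPM and 3.29% ± 0.0764 of counts. In the second quantification Nebl-208 led in replicate 2 with 35.4% and Nebl-202 led in replicate 1 with 35.0%. Nebl-210 (1426 bases, end incomplete) held 16.7% ± 1.91 of TPM, and the second quantification gave it 7.88% ± 0.703. Starts were grouped where they lay within 1000 bases of each other. The group that holds Nebl-202 and Nebl-210 held 44.4% ± 1.33 of the gene's TPM and 76.1% ± 0.165 of its counts, and lies 271 kb downstream of the first start. The group of Nebl-208, which also holds 3 more short models, held 39.0% ± 0.197 of TPM and 4.95% of counts. The coding models Nebl-207 and Nebl-206, which begin downstream of the printed Nebl window with the CArG box, held 8.15% ± 1.70 of TPM, and 12.9% ± 2.13 in the second quantification. The most upstream start, with the GC-rich window, gave Nebl-201 (5780 bases, 7 exons, 270 codons) at 12.2 TPM in replicate 2 and 10.8 TPM in replicate 1. A short product of this locus is known as LIM-nebulette or LASP2, and the tables do not name it. With its neighbour Nebl-205, Nebl-201 held 8.24% ± 0.238 of the gene's TPM and 14.6% ± 0.609 of its counts, and the second quantification put them at 3.26% ± 0.328 of TPM.

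Speg and Obsl1 were divided as well. Speg-201 (10801 bases, 41 exons, 3262 codons), which begins after the printed window with the MEF2 box, was at 26.1 TPM in replicate 2 and 25.0 TPM in replicate 1, with 51.3% ± 0.825 of the gene's TPM and 78.5% ± 0.651 of its counts. Speg-211 (9885 bases, start incomplete) held 12.6% ± 0.231 of TPM and 17.6% of counts. The models that begin after the GC-rich window of Speg-214 held 15.4% ± 1.87 of TPM but 1.11% of counts. A further group 24.8 kb downstream of the first start held 16.2% ± 1.52 of TPM. Its coding models Speg-204 and Speg-202, of 113 codons each, were at 3.49 ± 0.460 and 3.42 ± 0.396 TPM. The second quantification set them apart, with Speg-204 at 1.15 ± 0.705 TPM and Speg-202 at 5.44 ± 0.350 TPM. Small products of the locus, known as APEG-1 in smooth muscle of arteries, are described alongside the long striated muscle forms, and the tables name neither. The summed smooth muscle marker level was 177 TPM in replicate 2 and 152 TPM in replicate 1, led by Acta2 at 76.9 ± 17.6 TPM and Smtn at 57.9 ± 6.02 TPM, and its part in the short Speg models was not tested.

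Obsl1-202 (5679 bases, 1804 codons) was the leading transcript of Obsl1, at 22.9 TPM in replicate 2 and 21.5 TPM in replicate 1. It held 43.4% ± 0.0920 of the gene's TPM and 74.2% ± 0.0651 of its counts. Obsl1-205 (1252 bases, incomplete at both ends) held 15.0% ± 0.431 of TPM, and 21.6% ± 1.17 in the second quantification. Models annotated as retained introns held 34.8% ± 1.38 of Obsl1 TPM but 13.7% ± 0.944 of its counts. The share of TPM was more than for any of the remaining members, with 8 of the 13 Obsl1 models in that class. The second quantification lowered that share to 23.4%, and the largest move within it was Obsl1-213 (440 bases), which held 9.94% of TPM in replicate 2 and 13.5% in replicate 1 in the first quantification, and which the second put at 0 in both hearts.

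**Figure D4:**
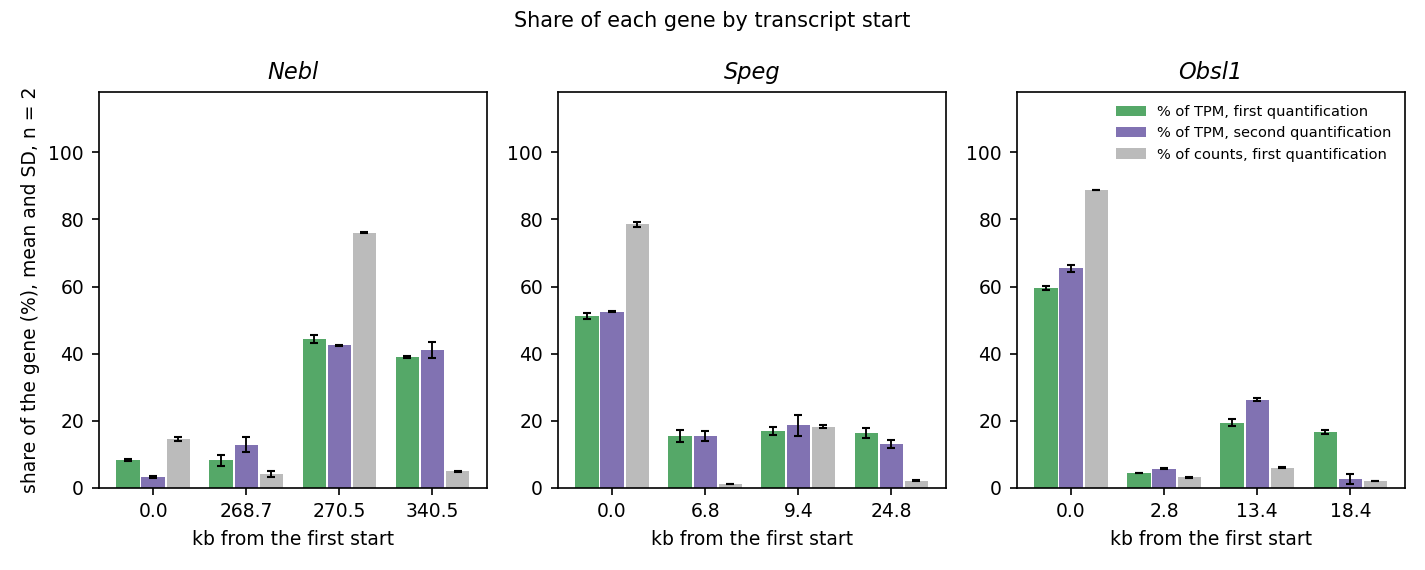
Share of Nebl, Speg and Obsl1 by group of transcript starts, ordered by distance from the first start in kb, as percent of TPM in the first (green) and second quantification (purple) and percent of estimated counts (grey), mean and SD of 2 hearts. Groups with under 1% of TPM in both quantifications are left out. In Nebl the group at 270.5 kb carries 76.1% of counts, and in Speg and Obsl1 the first start carries 78.5% and 88.8%.

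Alpk3 and Nrap each had 1 main start. Alpk3-201 (6369 bases, 14 exons, 1680 codons), whose start follows the printed window with TATAAA, held 99.2% ± 0.207 of the gene's TPM and 99.96% of its counts, and the second quantification gave it all of the gene. In Nrap, 99.8% ± 0.0585 of TPM came from models that begin within 161 bases of each other, after the printed Nrap window. Nrap-201 (5334 bases, 41 exons, 1693 codons) was at 87.5 TPM in replicate 2 and 78.7 TPM in replicate 1, which was 78.9% ± 1.49 of the gene. Nrap-205 (4752 bases) held 15.1% ± 0.401.

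Nrap-202 (5501 bases, 42 exons, 1728 codons) differs from Nrap-201 by an added coding exon of 105 bases, or 35 codons, at chr19:56374364-56374468 on the minus strand of mm10. NRAP is known to occur with and without such an exon in heart and skeletal muscle. The exon is shown in capitals with 24 bases of its neighbours on each side, followed by the junction without it, both read from the GENCODE M21 transcripts.
Nrap-202 with the exon: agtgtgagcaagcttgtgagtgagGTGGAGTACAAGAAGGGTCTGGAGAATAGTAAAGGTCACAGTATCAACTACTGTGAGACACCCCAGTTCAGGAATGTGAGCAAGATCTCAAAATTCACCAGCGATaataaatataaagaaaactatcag
Nrap-201 without it: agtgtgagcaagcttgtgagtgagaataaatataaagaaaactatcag
Models that hold the exon had 2.34% of the TPM of the 5 full-length models in replicate 2 and 1.62% in replicate 1. In the second quantification the share was 17.6% in replicate 2 and 16.7% in replicate 1. The form without the exon led in both hearts and in both quantifications, while the size of the minor form was set by the quantification.

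Neb was too low for a clear account of its transcripts. By counts Neb-202 (22489 bases, 157 exons, 7152 codons) led in both hearts, with 313 of 531 counts in replicate 2 and 368 of 567 in replicate 1. By TPM Neb-202 led in replicate 2 with 23.5%, and Neb-212, a model of 1004 bases, led in replicate 1 with 21.7% and was at 0 in replicate 2. In the second quantification Neb-202 led in both hearts, with 32.6% in replicate 2 and 24.9% in replicate 1, and Neb-212 was at 0 TPM in replicate 2 and 0.0028% of the gene in replicate 1. Neb was the 1 member of the 7 whose leading transcript by TPM differed between the hearts in the first quantification.

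No member was 2-fold or more apart between the hearts, which held for nearly all genes tested. Counts were scaled between libraries by TMM factors, which assume that most genes do not differ, and genes under 1 CPM on average were left out. Of 12908 such genes, 1.2% were 2-fold or more apart, 38 of them higher in replicate 2 and 117 higher in replicate 1, and 0 of the 7 members were among them. The design has 1 library per animal, so these ratios have no replicate test, and their intervals are exact binomial 95% intervals that cover counting error only. The log2 ratio of replicate 2 over replicate 1 was -0.10 for Ttn (interval -0.10 to -0.10), -0.23 for Neb (-0.41 to -0.06) and 0.16 for Nrap (0.13 to 0.18). It was 0.06 for Nebl, 0.05 for Obsl1, 0.04 for Speg and 0.09 for Alpk3. Scaled by the spike-ins, the median of all genes moved from 0.01 to -0.14, and the ratios moved with it, to -0.24 for Ttn, -0.38 for Neb, 0.01 for Nrap, -0.09 for Nebl, -0.09 for Obsl1, -0.10 for Speg and -0.05 for Alpk3. Relative to the median of all genes, which shifts with the scaling as the ratios do, Ttn and Neb were lower in replicate 2. Nrap, Alpk3 and Nebl were higher. Obsl1 and Speg also lay above the median. Their intervals with TMM factors, 0.001 to 0.108 and 0.004 to 0.078, held that median of 0.01. With TMM factors the median size of the log2 ratio over all genes, whatever its sign, was 0.12. Among the members only Neb and Nrap exceeded that size. That median covers genes of all depths from 1 CPM upward. It does not tell whether a ratio is ordinary for a gene with as many counts as the member. The adipocyte and erythroid markers were the lists that lay furthest apart between the hearts, both higher in replicate 1, and their part in these ratios was not tested.

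**Figure D5:**
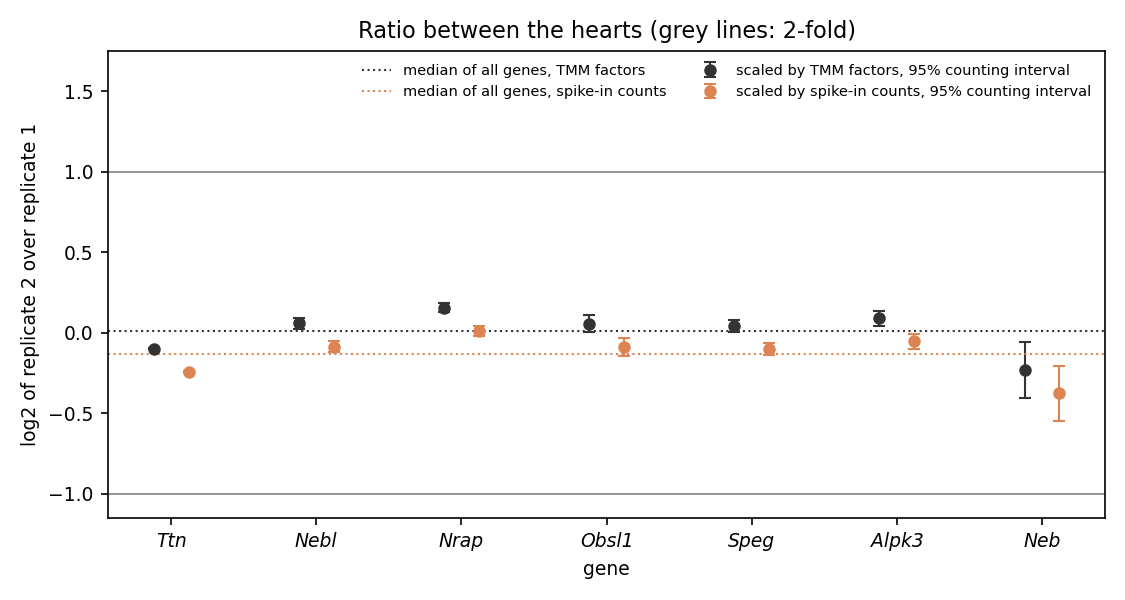
Log2 ratio of replicate 2 over replicate 1 for each gene, from counts scaled by TMM factors (black) and by spike-ins (orange), with exact binomial 95% intervals that cover counting error only and dotted lines at the median of all genes. All 7 genes lie within the grey lines that mark a 2-fold difference, and Neb, with 531 counts in replicate 2 and 567 in replicate 1, has the widest interval.

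Genes that overlap the members added little. Exons of the antisense gene Gm13938 share 453 bases with those of Ttn, exons of Habp2 and Gm17197 share 268 and 108 bases with those of Nrap, and exons of Gm13522 share 45 bases with those of Neb, all on the opposite strand. The first 3 had 0 TPM in both hearts, and Gm13522 was at 0.110 TPM in replicate 2 and 0.0800 TPM in replicate 1.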

How the data were processed

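Estimated counts per gene and transcript, TPM and lengths were deposited by the authors for each heart. In the first tables, each transcript's percent of its gene was deposited by the authors too, and shares here were recomputed from TPM. Bounds of TPM intervals, on another scale of certainty, were deposited by the authors and not analysed here. The build mm10 and the annotation GENCODE M21 are named in the text files the authors deposited, while the tools behind them were not given in the sources used here. Reads of the hybrid strain from CAST alleles were thus assigned to a reference of another strain, and the effect was not tested. Symbols, coordinates and biotypes were taken from GENCODE M21 by identifier.

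The members and lists were chosen with earlier results of these data known. Of each list the text names the highest, second highest and lowest gene by mean TPM, and of transcripts each member's leading ones, those at 10% or more of TPM and those that a described group of starts or exons needs, chosen after their values were seen. The sums over starts, exons and long transcripts were also added then. Estimated counts were rounded to whole numbers for TMM factors (edgeR 4.0.16) and size factors (DESeq2 1.42.0) in R 4.3.3, with transfer RNA rows and spike-ins left out of library sizes. This step was tested on simulated data. No ratio between the hearts was formed where both had 3 counts or fewer, and a count of 0 beside a higher one was set to 3. Pair ratios used a pseudocount of 0.1 TPM. Means, SDs and shares were computed with Python 3.11.15, pandas 2.3.3, numpy 2.4.6 and scipy 1.17.1, and figures with matplotlib 3.10.9. Replicate numbers come from the labels, and nothing beyond the animal names says that the hearts were prepared separately, so SDs may be partly technical.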

Additional observations from a re-analysis of the deposited data

How the results depend on the processing

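Over all their transcripts, all 7 genes stayed at 1 TPM or more in both hearts with posterior mean TPM and in the second quantification. Over long transcripts alone, Neb was below 1 TPM, at 0.520 TPM in replicate 2 and 0.540 TPM in replicate 1. By gene counts, 0 of 7 were 2-fold apart between the hearts under each alternative scaling, without the filter, and in the second quantification. The order was the same in each heart alone and with posterior mean TPM, where 6 of 6 neighbours stayed apart, while the second quantification set apart 5, all but Obsl1 and Speg. The log2 ratio of Alpk3 over Alpk2 was 0.026 in place of -0.130 in the second quantification. Summing only transcripts of at least 50% of the longest length, an alternative chosen after seeing the data, turned Nebl over Nrap to -1.07 and Speg over Obsl1 to 0.33, and moved Nrap over Neb to 7.38 and Ttn over Speg to 3.57. At a limit of 25% in place of 50%, Obsl1 stayed above Speg, at 32.7 ± 1.19 against 31.9 ± 1.32 TPM. With 1 TPM as the pseudocount, Nebl over Neb was 5.51 and Ttn over Neb 8.40. Speg over Obsl1 was -0.016 with posterior means and -0.055 in the second quantification, and Nebl over Lasp1 was 3.00 and 2.99. Without the filter of 1 CPM, 1681 genes were 2-fold apart, against 155 with it. The cause was not tested for these, apart from the filter, which admits genes of few counts. No paired analysis was possible because there is 1 group.

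The limits are those of 2 libraries from 1 group: no test between groups, SDs from 2 values, and levels of single transcript models that shift with the quantification, among them Nrap-202, Obsl1-213, Ttn-203 and Ttn-205. Depth limits the transcripts of Neb, with 531 counts in replicate 2 and 567 in replicate 1, and not the gene levels of the remaining 6.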
